A study of Mus musculus with 90 samples.

Results

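A set of 10 genes that act in growth arrest and stress defence, and that are known as targets of FOXO transcription factors or as relatives of such targets, was followed through every liver RNA experiment of a study of night-restricted feeding (NRF) in mice. The genes were Depp1, Sesn1, Sesn3, Ccng2, Btg1, Klhl24, Cited2, Gadd45a, Gadd45b and Gadd45g. They were chosen by symbol, out of 24312 symbols in the RNA table, and for each the RefSeq ID with the highest level averaged over all 54 RNA libraries was used, in RPKM (reads scaled to transcript length and to the mapped reads of the library). The list of symbols was drawn up with results of these data in view. The number of its genes that changed in an RNA comparison, or that lay near a peak, therefore describes the list and supports nothing beyond it. The value that chose an ID, the mean over the 54 libraries, ran from 2.67 RPKM for Gadd45a to 58.9 RPKM for Gadd45g. A second ID of the same symbol was left aside for Depp1 (mean 21.2 RPKM, against 21.3 RPKM for the ID used) and for Sesn1 (8.72 against 10.2 RPKM).

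The 54 libraries, each from liver and all from mice on NRF, fell into 16 groups in 5 experiments. Uninjected wild-type C57BL/6 males of 10 weeks were taken at zeitgeber time (ZT, hours after lights on) ZT10, at ZT14 without food (ZT14-unfed) or at ZT14 after 2 h with food (ZT14-fed), with 2 libraries a group, made from RNA depleted of ribosomal RNA. Wild-type mice of the same age were injected before the meal and taken at ZT14, as unfed mice given vehicle (PBS) and as fed mice given vehicle, dexamethasone (dex, a synthetic glucocorticoid, 1 mg/kg), S961 (an antagonist of the insulin receptor) or both, with 4 libraries a group. The dose of S961 reads 44 nM per mouse in the sample labels, whereas the methods of the study give the same number in nmol per kg of body weight. Loss of the glucocorticoid receptor (GR, encoded by Nr3c1) was compared in unfed Nr3c1 fl/fl mice on a C57BL/6 background that had received an adeno-associated virus (AAV) with GFP or CRE, each under the liver-specific Tbg promoter, with 4 libraries a group. Loss of both insulin receptor substrates was compared in Irs1 fl/fl, Irs2 fl/fl mice of 10 weeks with and without Alb-Cre (L-IRSdKO and floxed controls), with 4 libraries a group, and all of these mice were fed and had received 1 mg/kg dex, so that no mouse of that experiment was free of dex. Lean and diet-induced obese (DIO) wild-type C57BL/6 mice had eaten chow or a high-fat diet for 10 weeks from the age of 5 weeks before NRF and were taken unfed or fed at ZT14, with 3 libraries a group. RNA of the last 4 experiments was enriched for poly(A). The labels give the strain as C57BL/6 throughout, whereas the methods of the study name the substrain C57BL/6N for the wild-type and Nr3c1 fl/fl mice and C57BL/6J for the background of the Irs1 fl/fl, Irs2 fl/fl mice. By its label each library came from 1 mouse. The p-values thus rest on the spread between mice within groups, pooled over all groups of an experiment and moderated across genes.

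FOXO proteins are transcription factors that stay in the nucleus and bind DNA while insulin is low. When insulin rises after a meal, its receptor signals through the IRS proteins to the kinase AKT, which phosphorylates FOXO proteins and sends them out of the nucleus, so transcription of their targets falls. In the liver FOXO1 is best known for driving genes of glucose production during fasting, and often binds near GR, the nuclear receptor for corticosterone. Besides metabolic genes, FOXO factors drive genes that halt the cell cycle, restrain growth signals and limit oxidative damage, and several of these also answer to p53, to glucocorticoids or to cell stress.

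All 10 genes had open chromatin at their start, and most had a FOXO1 or GR peak in reach. The peaks are those the authors called in livers of unfed mice at ZT14, and the DNase hypersensitive sites (DHSs, open chromatin) are those called on all DNase libraries, fed and unfed together, so the lists hold positions without levels. Within 50 kb of the transcription start site (TSS), 9 of the 10 genes had a FOXO1 peak, beside 35.3% of 22120 placed genes, 8 had a GR peak, beside 33.6%, and 10 had a DHS, beside 88.3%. Within 5 kb, 5 genes had a FOXO1 peak, beside 11.1%, 5 had a GR peak, beside 8.25%, and 10 had a DHS, beside 67.2%. Among the 10324 genes whose mean reached 1 RPKM, as it did for all members, the shares within 50 kb were 51.9% for FOXO1, 48.9% for GR and 99.8% for DHSs, and those within 5 kb 20.4%, 15.1% and 96.1%. Klhl24 had FOXO1 peaks only, with no GR peak within 100 kb, and Sesn3 had neither peak within 50 kb, its nearest GR peak lying 60681 bases upstream.

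**Figure D1:**
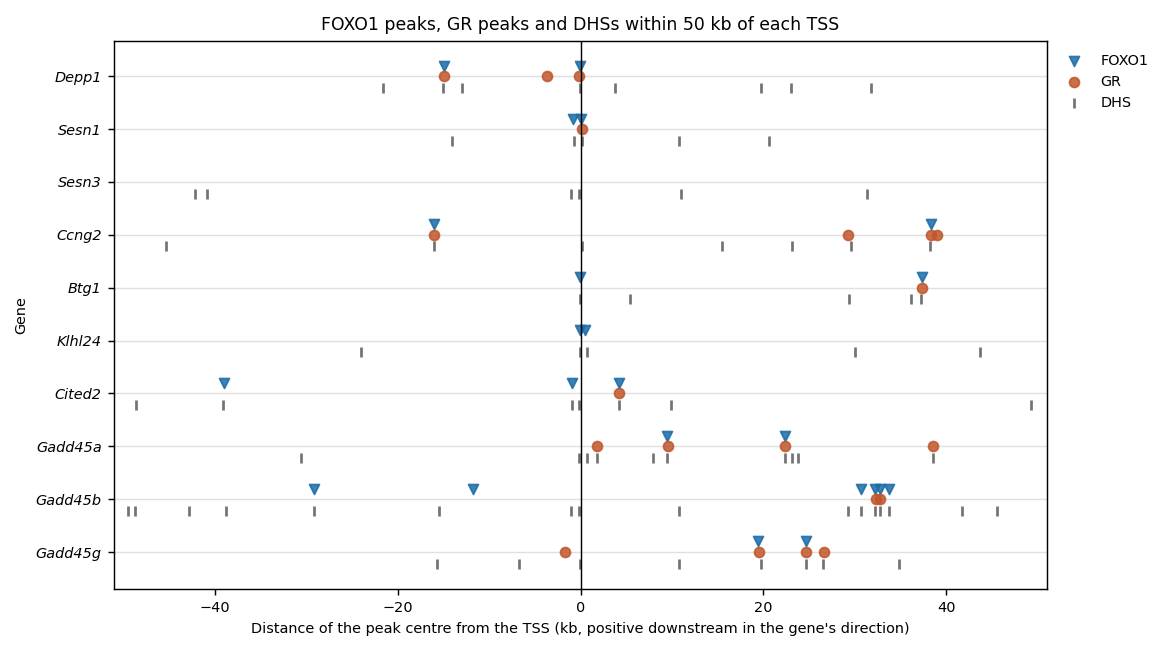
Position of each FOXO1 peak (triangle), GR peak (circle) and DHS (bar) within 50 kb of the TSS of the 10 genes, with the distance of the peak's centre in kb on the x axis, positive downstream in the direction of the gene. FOXO1 peaks sit at the start of Depp1, Sesn1, Btg1, Klhl24 and Cited2, the FOXO1 peaks of the Gadd45 genes lie at least 9491 bases away, and Sesn3 has only DHSs.

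The sequences under 10 selected peaks near the genes are shown because the peaks place FOXO1 at the start of some genes and GR near others, and the letters let the sites be read. They are not always the nearest, and their matches describe this selection only. The nearest FOXO1 peak of Gadd45b, 11755 bases upstream, is not shown. Nor are the nearest FOXO1 and GR peaks of Ccng2, 16068 and 16030 bases upstream. They are the mm9 plus strand, 180 bases each, in lower case, with capitals for 3 strings searched on both strands, the forkhead core TGTTTAC, the insulin response core CAAAACA and the GR core ACANNNTGT. Of the 8546 FOXO1 peaks, 18.8% hold the forkhead core, 9.02% the insulin response core and 12.7% the GR core, and of the 10446 GR peaks 7.29%, 8.48% and 20.3% hold them. Of the 23 FOXO1 peaks within 50 kb of the members, 5 held the forkhead core, 3 the insulin response core and 1 the GR core. Of the 20 GR peaks, 2 held the forkhead core, 2 the insulin response core and 4 the GR core. A match describes these letters only. The first 5 peaks lie at the start of the genes of growth arrest and nutrient signalling, the next at Cited2, and the last 4 at the Gadd45 genes.
Depp1, FOXO1 peak, chr6:116600510-116600689, centre 103 bases upstream of the TSS, overlapping a GR peak and a DHS: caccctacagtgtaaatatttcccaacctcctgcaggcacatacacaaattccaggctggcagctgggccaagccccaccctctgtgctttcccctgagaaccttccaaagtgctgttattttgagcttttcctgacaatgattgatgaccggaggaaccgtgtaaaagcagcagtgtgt
Sesn1, FOXO1 peak, chr10:41530341-41530520, centre 50 bases downstream of the TSS in an exon, overlapping a GR peak and a DHS: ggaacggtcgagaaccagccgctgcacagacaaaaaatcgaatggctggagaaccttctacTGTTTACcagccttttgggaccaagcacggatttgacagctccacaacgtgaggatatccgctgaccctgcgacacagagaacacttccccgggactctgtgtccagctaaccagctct
Btg1, FOXO1 peak, chr10:96079445-96079624, centre 101 bases upstream, overlapping a DHS: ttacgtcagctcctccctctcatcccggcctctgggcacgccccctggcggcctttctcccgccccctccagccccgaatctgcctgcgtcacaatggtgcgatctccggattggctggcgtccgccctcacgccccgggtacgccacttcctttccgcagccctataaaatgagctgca
Klhl24, FOXO1 peak, chr16:20097484-20097663, centre 54 bases upstream, overlapping a DHS: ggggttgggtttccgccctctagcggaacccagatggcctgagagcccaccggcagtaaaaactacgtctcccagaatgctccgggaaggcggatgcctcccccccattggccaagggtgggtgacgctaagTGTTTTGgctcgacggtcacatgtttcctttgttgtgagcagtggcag
Klhl24, FOXO1 peak, chr16:20098002-20098181, centre 464 bases downstream in an intron, outside the DHSs: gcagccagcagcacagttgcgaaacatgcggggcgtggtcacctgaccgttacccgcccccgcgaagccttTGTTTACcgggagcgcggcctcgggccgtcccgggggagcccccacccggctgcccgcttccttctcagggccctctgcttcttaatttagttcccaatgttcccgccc
Cited2, FOXO1 peak, chr10:17442018-17442197, centre 927 bases upstream, overlapping a DHS: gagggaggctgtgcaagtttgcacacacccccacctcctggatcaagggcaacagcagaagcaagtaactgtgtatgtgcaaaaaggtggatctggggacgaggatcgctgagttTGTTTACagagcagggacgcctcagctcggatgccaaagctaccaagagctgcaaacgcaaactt
Gadd45a, GR peak, chr6:66985501-66985680, centre 1810 bases downstream in an exon, overlapping a DHS: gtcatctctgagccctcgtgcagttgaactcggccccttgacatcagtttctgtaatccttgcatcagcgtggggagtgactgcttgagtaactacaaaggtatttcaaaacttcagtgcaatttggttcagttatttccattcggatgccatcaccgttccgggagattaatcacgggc
Gadd45b, FOXO1 peak, chr10:80424969-80425148, centre 32222 bases downstream inside Gng7, overlapping a GR peak and a DHS: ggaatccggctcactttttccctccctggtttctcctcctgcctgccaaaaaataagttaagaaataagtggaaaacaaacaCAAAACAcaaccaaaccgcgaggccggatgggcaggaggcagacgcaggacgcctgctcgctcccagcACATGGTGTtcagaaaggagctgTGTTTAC
Gadd45g, GR peak, chr13:51940256-51940435, centre 1702 bases upstream, outside the FOXO1 peaks and DHSs: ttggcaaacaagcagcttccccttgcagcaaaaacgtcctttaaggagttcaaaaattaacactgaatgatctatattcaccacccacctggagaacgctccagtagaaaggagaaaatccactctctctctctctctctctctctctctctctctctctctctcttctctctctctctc
Gadd45g, GR peak, chr13:51961487-51961666, centre 19529 bases downstream, overlapping a FOXO1 peak: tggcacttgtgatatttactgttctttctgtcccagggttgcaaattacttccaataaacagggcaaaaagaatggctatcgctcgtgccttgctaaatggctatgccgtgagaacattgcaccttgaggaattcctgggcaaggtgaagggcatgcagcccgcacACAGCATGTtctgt
In these 10 peaks the forkhead core occurred at Sesn1, in the intronic peak of Klhl24, at Cited2 and in the distal peak of Gadd45b, which also held the other 2 cores. The insulin response core stood at the start of Klhl24, read on the other strand as TGTTTTG. The distal GR peak of Gadd45g held the GR core ACAGCATGT, and the peaks at the start of Depp1 and Btg1, the exonic peak of Gadd45a and the proximal peak of Gadd45g held none of the 3 strings. The proximal GR peak of Gadd45g ends in a long run of repeated tc.

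The genes sit at the following places of mm9, given for the longest annotated protein-coding transcript of each gene. This transcript was not matched to the RefSeq ID in brackets. Annotated TSSs number 2 for Sesn1, Cited2 and Gadd45g, 5 for Gadd45a and 6 for Ccng2. Counted from any annotated TSS, 9 of the 10 genes had a FOXO1 peak within 50 kb, beside 37.6% of placed genes. For GR peaks, 8 did, beside 35.9%. Depp1 (NM_001166580, annotated as 8430408G22Rik) has 2 exons at chr6:116600702-116602865 on the plus strand, inside the bounds of Rassf4. The sestrins have 10 exons each, Sesn1 (NM_001013370) at chr10:41530380-41628230 and Sesn3 (NM_030261) at chr9:14080745-14130582, both on the plus strand. Ccng2 (NM_007635) has 8 exons at chr5:93696283-93705257, Btg1 (NM_007569) 2 exons at chr10:96079635-96085447, Klhl24 (NM_029436) 8 exons at chr16:20097627-20127817 and Cited2 (NM_010828) 2 exons at chr10:17443034-17445479, all on the plus strand. The Gadd45 genes have 4 exons each, Gadd45b (NM_008655) at chr10:80392836-80394949 and Gadd45g (NM_011817) at chr13:51942047-51943837 on the plus strand, and Gadd45a (NM_007836) at chr6:66985090-66987400 on the minus strand. Of the exon bases of Gadd45a, 19.5% are shared with the antisense gene E230016M11Rik, and since no source used here states that reads were counted by strand, reads of the pair cannot be told apart.

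Estimated from the steps that 1 read makes in the RPKM values, libraries held about 25900000 to 38300000 reads in the uninjected mice, 6460000 to 13400000 in the injected mice, 7600000 to 27300000 in the GR experiment and 16800000 to 62200000 in the diet experiment. No estimate is given for the IRS experiment, where the size of that step was uncertain. The supplement of the study lists fewer reads for each IRS library than for any library of the diet experiment. The scarcest values were those of Gadd45a and Gadd45b, with estimates down to 2 reads each. Replicates of a group correlated over genes at r of 0.937 to 0.992. Hepatocyte markers (Alb, Ttr, Apoa1, Apob, Serpina1a and Tat) summed to 28200 to 74100 RPKM per library in 4 experiments but to only 2260 to 2730 RPKM in the IRS experiment, in its controls and knockouts alike, so levels are compared within an experiment only. The 5 injected libraries numbered 4 carry library codes of a series of their own and deviated together (r of 0.441 to 0.605 between pairs), so the comparisons of injected mice are also given for replicates 1 to 3. In AAV-CRE livers, Nr3c1 was at 3.93, 4.23, 4.14 and 5.35 RPKM against 12.8, 14.5, 13.2 and 16.2 RPKM with AAV-GFP (log2 fold change -1.58, adjusted p = 6.83e-05). In L-IRSdKO livers, Irs1 was at 0.149, 0.155, 0.321 and 0.17 RPKM against 2.21, 4.7, 4.73 and 4.5 RPKM in controls (log2 fold change -2.66, adjusted p = 0.000916). Irs2 overlapped between the groups, at 0.272 to 1.0 RPKM against 0.614 to 5.61 RPKM (log2 fold change -0.79, adjusted p = 0.308). These and all other tests across genes are limma's moderated test on log2(RPKM + 0.5) with Benjamini-Hochberg (BH) adjustment over all genes whose mean in the experiment reached 0.5 RPKM, and a gene is said to rise or fall where the adjusted p was under 0.05. All 10 members passed that filter in every experiment. In the RNA comparisons, the share of all genes set beside a count covers calls in either direction. Groups said not to overlap describe the printed values, mostly of genes already called, and add no support to a call. The share of all genes without overlap was not computed. A log2 fold change on this scale understates changes of low genes, and folds in the text are ratios of mean RPKM.

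**Figure D2:**
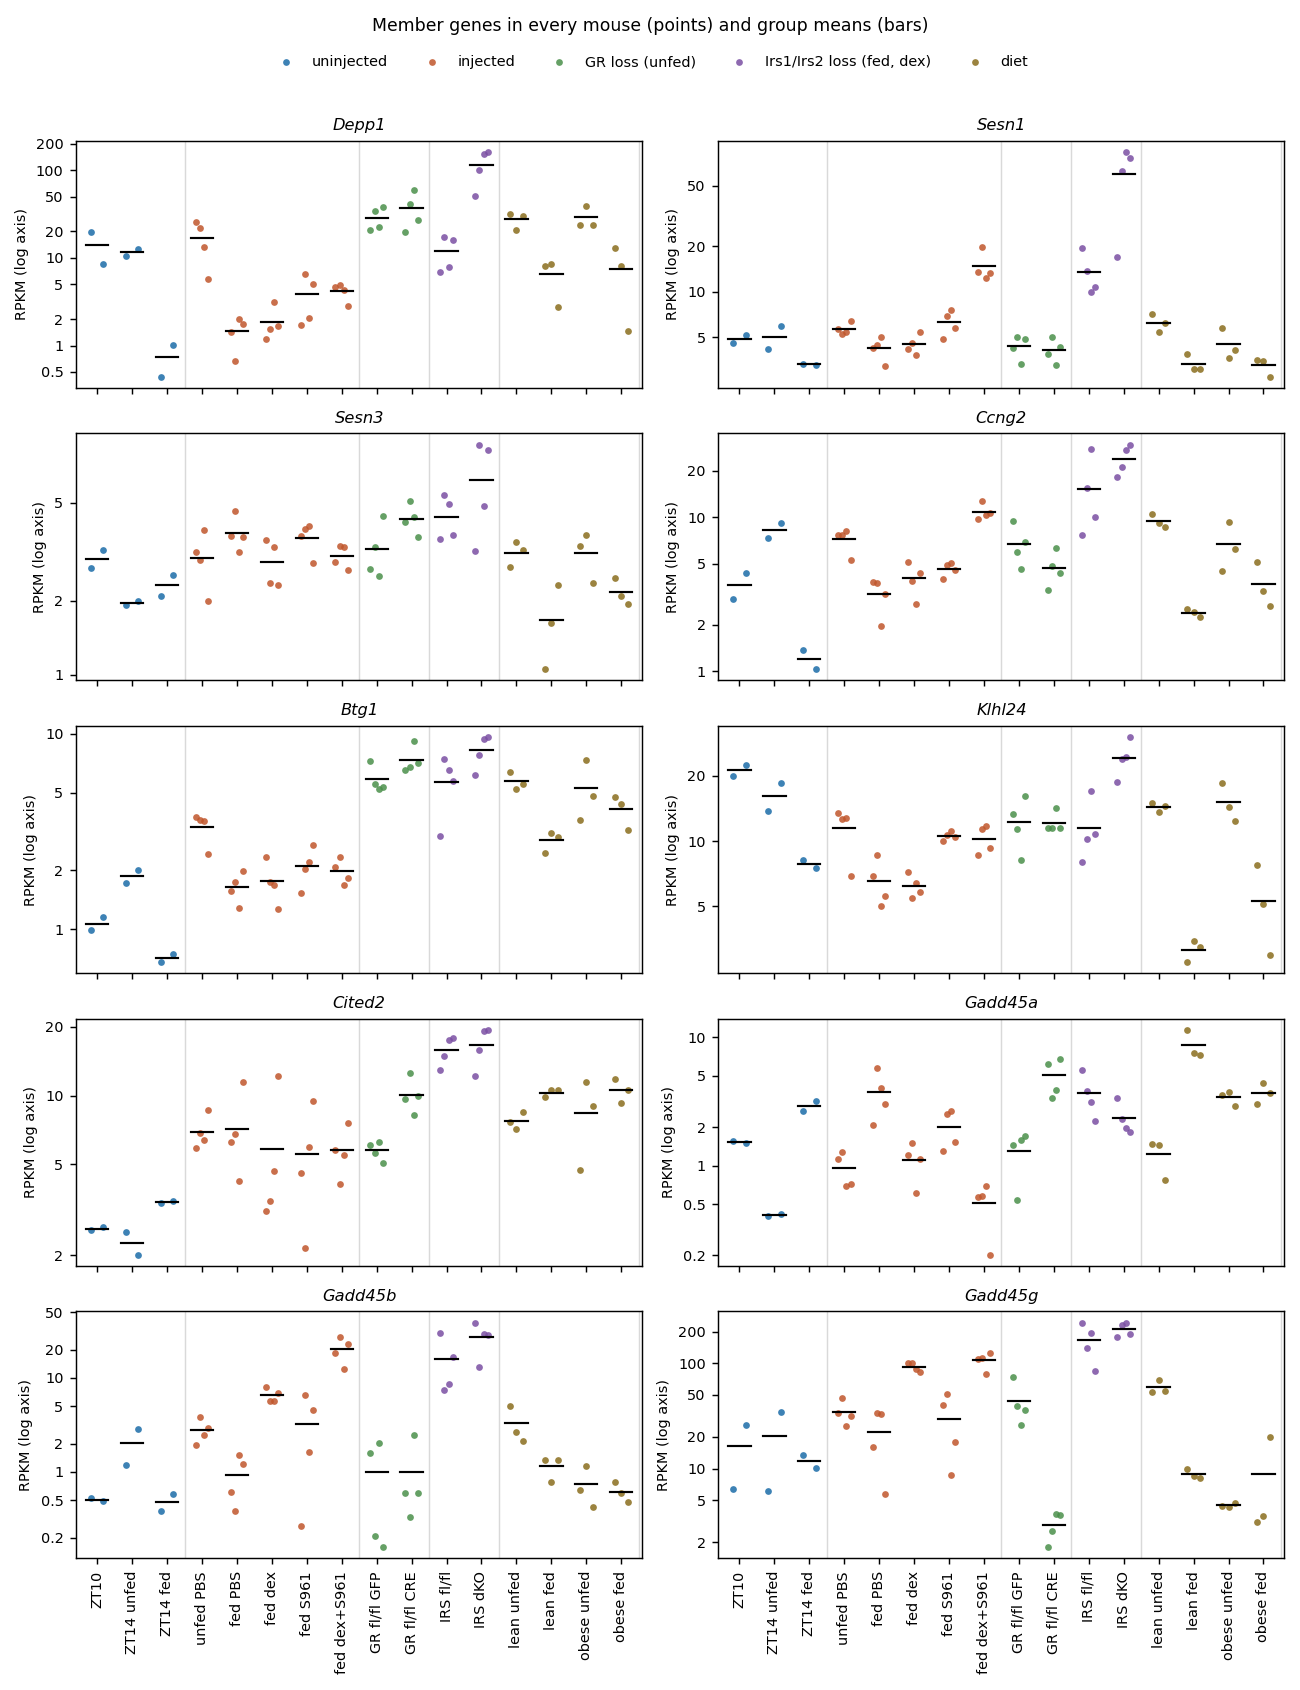
RPKM on a log axis of the 10 genes in every one of the 54 livers (points, coloured by experiment) with the group mean (bar), for the 16 groups on the x axis. Levels can be compared within an experiment only. Depp1 is at 50.55 RPKM or above in L-IRSdKO livers and at 17.31 RPKM or below in their controls. Gadd45a is higher in the fed than in the unfed uninjected and lean livers, and Gadd45g is at 3.71 RPKM or below in all AAV-CRE livers.

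The first question was what changed between ZT10 and ZT14 while food was withheld, called time of day below. ZT14-unfed mice had also gone longer without food than ZT10 mice, so clock time and length of fast cannot be told apart. Between ZT10 and ZT14-unfed, Ccng2, Btg1 and Gadd45b rose and Gadd45a fell, which makes 4 of the 10 genes beside 8.95% of 10907 genes. Ccng2 encodes an unconventional cyclin that accompanies exit from the cell cycle. It was at 2.92 and 4.31 RPKM at ZT10 and at 7.29 and 9.23 RPKM at ZT14-unfed (log2 fold change 1.1, SE 0.20, adjusted p = 0.0213). Gadd45a, a small stress protein that binds PCNA and the MAP kinase kinase kinase MEKK4, was at 1.56 and 1.51 RPKM at ZT10 and at 0.406 and 0.423 RPKM at ZT14-unfed (log2 fold change -1.16, SE 0.12, adjusted p = 0.00558). Neither gene's groups overlapped. Btg1 (log2 fold change 0.59, adjusted p = 0.0375) and Gadd45b (1.23, adjusted p = 0.0476) passed narrowly. With 2 libraries a group, the call of Btg1 was lost without any one of the 6 libraries (adjusted p up to 0.179), that of Gadd45b without any but ZT14-unfed replicate 1 (up to 0.163), and that of Ccng2 without ZT10 replicate 1 or ZT14-unfed replicate 2 (up to 0.0886). The 10 genes had a median log2 fold change of -0.06, against -0.1 for all genes.

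The meal then lowered Depp1, Ccng2, Btg1, Klhl24 and Gadd45b and raised Gadd45a in uninjected mice. Of the 10 genes 6 changed between ZT14-unfed and ZT14-fed, 5 downward and 1 upward, beside 6.77% of all genes. Depp1, a FOXO target whose protein is found at peroxisomes and mitochondria and affects autophagy, was at 10.6 and 12.5 RPKM without food and at 0.443 and 1.02 RPKM with it. This was a 15.8-fold lower mean, with no overlap (log2 fold change -3.33, SE 0.37, adjusted p = 0.00628). Ccng2 was at 1.38 and 1.03 RPKM after the meal, 6.87-fold below the unfed livers and also below both ZT10 livers (log2 fold change -2.36, SE 0.20, adjusted p = 0.00192). Btg1, an antiproliferative protein that recruits the CCR4-NOT deadenylase, went from 1.73 and 2.0 RPKM to 0.682 and 0.747 RPKM (log2 fold change -0.96, adjusted p = 0.0116). Klhl24, a Kelch-like adaptor of a ubiquitin ligase, went from 13.8 and 18.6 RPKM to 8.18 and 7.48 RPKM (log2 fold change -0.99, adjusted p = 0.0155). Each of these genes fell in both fed livers. Gadd45a instead rose to 2.69 and 3.16 RPKM, 7.06-fold above the unfed livers and above both ZT10 livers (log2 fold change 1.90, SE 0.12, adjusted p = 0.00102).

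Gadd45b, a stress protein of the same family, was at 1.18 and 2.84 RPKM unfed and at 0.379 and 0.575 RPKM fed (log2 fold change -1.28, adjusted p = 0.0493), a call that was lost without any library but ZT14-unfed replicate 1 (adjusted p up to 0.19). The call of Klhl24 was lost without either fed library (up to 0.138) and that of Btg1 without either fed library or ZT14-unfed replicate 2 (up to 0.0816). Sesn1, a sestrin that restrains mTORC1 when amino acids are scarce, was at 4.17 and 5.92 RPKM unfed and 3.32 and 3.3 RPKM fed without passing (log2 fold change -0.52, adjusted p = 0.0892). Cited2 (log2 fold change 0.51, adjusted p = 0.0531), Sesn3 (0.19, adjusted p = 0.387) and Gadd45g (-0.31, adjusted p = 0.849) did not pass either. In Gadd45g the 2 unfed livers were far apart, at 6.06 and 34.7 RPKM. The median of all genes lay 0.12 above 0 in this comparison, and relative to it the log2 fold change of Depp1 was -3.45, that of Ccng2 -2.48 and that of Gadd45a 1.78. The median of the 10 genes was -0.74.

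In mice injected with vehicle the same question was asked with 4 libraries a group, by comparing fed with unfed PBS mice at ZT14. Depp1, Ccng2, Btg1 and Klhl24 fell and Gadd45a rose, 5 of the 10 genes beside 3.13% of 11251 genes. Depp1 was at 25.5, 21.9, 13.4 and 5.79 RPKM unfed and at 1.42, 0.669, 2.01 and 1.74 RPKM fed, 11.4-fold lower without overlap (log2 fold change -2.99, SE 0.41, adjusted p = 0.00288). Ccng2 was at 7.69, 7.69, 8.11 and 5.25 RPKM unfed and at 3.78, 3.72, 1.96 and 3.19 RPKM fed (log2 fold change -1.08, SE 0.18, adjusted p = 0.00555). Gadd45a was at 1.12, 1.28, 0.699 and 0.718 RPKM unfed and at 2.08, 5.75, 4.06 and 3.03 RPKM fed, 3.91-fold higher (log2 fold change 1.49, SE 0.26, adjusted p = 0.00674). In these 3 genes every fed liver was on the same side of every unfed liver. Btg1 went from a mean of 3.34 ± 0.613 to 1.65 ± 0.296 RPKM (SD, n = 4, log2 fold change -0.83, adjusted p = 0.0132), again without overlap, and the call was lost without unfed replicate 2 (adjusted p = 0.0564).

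Klhl24 overlapped between fed and unfed, since unfed replicate 4, at 6.89 RPKM, lay within the fed range of 5.02 to 8.66 RPKM while the other unfed livers were at 12.6 to 13.5 RPKM. Its fall (log2 fold change -0.75, adjusted p = 0.0317) was lost without any of unfed replicates 1, 2 and 3 and fed replicates 1, 3 and 4 (adjusted p up to 0.108). Gadd45b had a log2 fold change of -1.25 here but did not pass (adjusted p = 0.154), at 1.91 to 3.86 RPKM unfed and 0.386 to 1.52 RPKM fed, ranges that did not overlap. Sesn1 (log2 fold change -0.39, adjusted p = 0.176), Gadd45g (-0.88, adjusted p = 0.332), Sesn3 (0.31, adjusted p = 0.314) and Cited2 (-0.03, adjusted p = 0.982) were not called. Of 6 macrophage markers 3 rose with the meal (Adgre1, Csf1r and Timd4, summed level of all 6 at 31.5 to 38.4 RPKM unfed and 43.2 to 63.7 RPKM fed, none at 0), and their part in these results was not tested. In whole liver, fewer cells of a type and less RNA per cell cannot be told apart. With replicates 1 to 3 alone, 5 members were called, beside 6.38% of 11230 genes.

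Dexamethasone given before the meal asked whether GR activity alone keeps these genes up in fed mice. It moved only Gadd45 genes among the 10, Gadd45b and Gadd45g upward and Gadd45a downward, 3 genes beside 3.19% of all genes. Gadd45g, the Gadd45 gene of highest level in these livers, was at 16, 33.3, 33.1 and 5.76 RPKM with vehicle and at 101, 102, 88.7 and 81.8 RPKM with dex, 4.22-fold higher (log2 fold change 2.33, SE 0.48, adjusted p = 0.0108). Gadd45b was at 0.604, 0.386, 1.52 and 1.21 RPKM with vehicle and at 7.97, 5.74, 5.72 and 6.85 RPKM with dex, 7.07-fold higher (log2 fold change 2.37, SE 0.47, adjusted p = 0.0085). Every dex liver lay above every fed vehicle liver for both genes, and also above every unfed vehicle liver, which reached 3.86 RPKM for Gadd45b and 47.2 RPKM for Gadd45g. Gadd45a was at 1.21, 1.51, 0.607 and 1.13 RPKM with dex, each below the lowest fed vehicle liver at 2.08 RPKM (3.34-fold lower, log2 fold change -1.35, SE 0.26, adjusted p = 0.00773). These calls remained without any one library and with replicates 1 to 3. The other 7 genes had log2 fold changes between -0.39 and 0.30, among them Depp1 at 1.87 RPKM with dex against 1.46 RPKM with vehicle (adjusted p = 0.781).

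S961 asked the reverse, whether blocking the insulin receptor prevents the fall. None of the 10 genes passed (lowest adjusted p = 0.0636 by limma), beside 1.9% of all genes. At an unadjusted p under 0.05 by limma were 6 of the 10, beside 1605 of all 11251 genes. The nearest to passing was Klhl24, at 9.96, 10.6, 11.2 and 10.4 RPKM with S961 against 6.87, 8.66, 5.02 and 5.61 RPKM with vehicle (log2 fold change 0.68, SE 0.18). Its groups did not overlap, and neither did those of Ccng2, at 3.98 to 5.02 RPKM against 1.96 to 3.78 RPKM (log2 fold change 0.51, adjusted p = 0.194). Depp1 was at 1.71, 6.5, 2.09 and 5.02 RPKM with S961 (log2 fold change 1.03, SE 0.41, adjusted p = 0.245), which put 2 livers above and 2 close to the vehicle range. Gadd45b was spread still more, from 0.264 to 6.58 RPKM (log2 fold change 1.03, adjusted p = 0.333). Replicates 1 to 3 gave no call either, beside 1.98% of all genes, whereas a term for the library series added one, Klhl24, beside 4.25%. Of 6 macrophage markers 2 fell with S961 (Adgre1 and Csf1r, summed level of all 6 at 29.1 to 43.3 RPKM), as they did with both agents (34.5 to 40.6 RPKM), and their part was not tested.

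Given together before the meal, dex and S961 raised Sesn1, Ccng2, Klhl24, Gadd45b and Gadd45g above fed vehicle mice and lowered Gadd45a, 6 of the 10 genes beside 10.6% of all genes. Sesn1 was at 4.23, 4.45, 5.03 and 3.25 RPKM with vehicle, at 4.22, 4.55, 3.84 and 5.4 RPKM with dex, at 4.89, 6.87, 7.61 and 5.78 RPKM with S961 and at 13.5, 19.7, 12.2 and 13.3 RPKM with both. The lowest liver with both agents was above the highest of all single treatments, a 3.47-fold higher mean than with vehicle (log2 fold change 1.67, SE 0.16, adjusted p = 4.53e-06). Ccng2 was at 9.7, 12.8, 10.3 and 10.7 RPKM with both, against 2.71 to 5.12 RPKM with dex and 3.98 to 5.02 RPKM with S961 (3.43-fold above vehicle, log2 fold change 1.66, SE 0.18, adjusted p = 2.17e-05). These 2 genes thus stood apart with both agents without overlap with any other fed group. The test of the interaction, the excess of the joint response over the sum of the single ones on the log scale, gave 1.07 for Sesn1 (SE 0.22, unadjusted p = 0.000124 by limma) and 0.85 for Ccng2 (SE 0.26, unadjusted p = 0.00437), both with an adjusted p of 1.0. Across all genes the interaction called 0 of 11251 by limma (0.0%), with 513 at an unadjusted p under 0.05, 2 of them members, so the departure from additivity did not pass for any gene.

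Gadd45b reached 18.6, 27.1, 12.5 and 22.8 RPKM with both agents, 21.8-fold above fed vehicle (log2 fold change 3.88, SE 0.47, adjusted p = 6.23e-05), and each of these livers was above each liver given dex alone. Gadd45g was at 111, 111, 78.8 and 126 RPKM, which overlapped its range with dex alone (log2 fold change against vehicle 2.51, SE 0.48, adjusted p = 0.0028). Gadd45a was at 0.571, 0.58, 0.69 and 0.203 RPKM, 7.30-fold below vehicle and the lowest mean of the 5 injected groups (log2 fold change -2.02, SE 0.26, adjusted p = 0.000138). The lowest of these values rests on an estimated 2 reads. Klhl24, at 8.65 to 11.8 RPKM, overlapped vehicle (log2 fold change 0.63, adjusted p = 0.0319), and its call was lost without replicate 2 or 3 with both agents or vehicle replicate 1, 3 or 4 (adjusted p up to 0.101). Depp1 was at 4.65, 4.93, 4.35 and 2.83 RPKM, all above the vehicle livers, but did not pass (log2 fold change 1.29, adjusted p = 0.0515), and passed with replicates 1 to 3, which gave 7 calls beside 11.6% of all genes. The median of all genes lay 0.14 below 0 in this comparison, and relative to it Sesn1 had a log2 fold change of 1.81, Ccng2 of 1.80 and Gadd45a of -1.88.

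Setting the fed mice with both agents against unfed vehicle mice asked how much of the unfed level was reached. Sesn1 and Gadd45b were above it and Depp1 below it, 3 of the 10 genes beside 2.32% of all genes. Depp1 remained 3.97-fold lower, at 2.83 to 4.93 RPKM against 5.79 to 25.5 RPKM (log2 fold change -1.70, adjusted p = 0.0321), a call that was lost without any of the 4 libraries with both agents or unfed replicates 1, 2 and 3 (adjusted p up to 0.13). Sesn1 exceeded the unfed level 2.58-fold without overlap (5.23 to 6.43 RPKM unfed, log2 fold change 1.28, adjusted p = 0.00022), and Gadd45b 7.25-fold (log2 fold change 2.63, adjusted p = 0.00534). Ccng2 (log2 fold change 0.57, SE 0.18, adjusted p = 0.135), Klhl24 (-0.12, SE 0.18, adjusted p = 0.93) and Gadd45a (-0.53, SE 0.26, adjusted p = 0.46) were not called, and Btg1 (-0.62, SE 0.17, adjusted p = 0.061) was called with replicates 1 to 3, which gave 4 calls beside 2.56% of all genes. This comparison shares its groups with those above, so their values are set side by side only.

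Between the single treatments, 2 of the 10 genes differed, beside 7.47% of all genes. Klhl24 was higher with S961 than with dex (9.96 to 11.2 against 5.46 to 7.19 RPKM, log2 fold change 0.72, adjusted p = 0.0176), and Gadd45g was lower with S961, at 40.5, 51.1, 8.6 and 17.8 RPKM (3.16-fold, log2 fold change -1.94, adjusted p = 0.0166). Neither gene overlapped between the treatments. The call of Klhl24 was lost without dex replicate 2 (adjusted p = 0.0632) and that of Gadd45g without S961 replicate 3 (0.0643). Cited2, a CBP/p300-binding protein that restrains the hypoxia factor HIF-1, was called in no comparison of injected mice, and its highest value was that of replicate 4 in all 5 groups, between 7.62 and 12.1 RPKM.

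**Figure D3:**
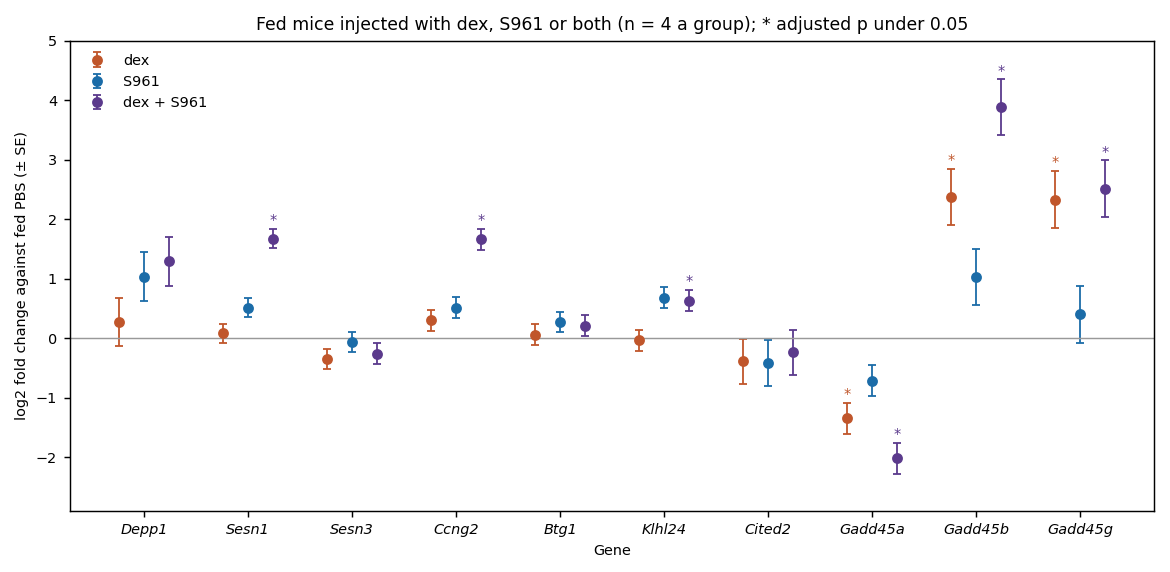
Log2 fold change of the 10 genes (x axis) in fed mice given dex, S961 or both against fed vehicle mice, with SE bars, 4 livers a group, and a star where the adjusted p was under 0.05. Sesn1 and Ccng2 carry a star only with both agents (1.67 and 1.66), and the Gadd45 genes carry one with dex and with both.

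Loss of GR in livers of unfed mice changed Gadd45g, Gadd45a and Cited2, 3 of the 10 genes beside 6.68% of 11649 genes. Gadd45g was at 73.4, 39.7, 26.1 and 36.1 RPKM with AAV-GFP and at 1.79, 2.55, 3.71 and 3.58 RPKM with AAV-CRE, 15.1-fold lower (log2 fold change -3.64, SE 0.29, adjusted p = 8.77e-05). Gadd45a was at 1.44, 0.537, 1.58 and 1.7 RPKM with AAV-GFP and at 6.23, 3.4, 3.9 and 6.76 RPKM with AAV-CRE, 3.86-fold higher (log2 fold change 1.63, SE 0.27, adjusted p = 0.00624). Cited2 was at 6.09, 5.62, 6.3 and 5.09 RPKM with AAV-GFP and at 9.62, 12.5, 8.24 and 9.94 RPKM with AAV-CRE (log2 fold change 0.74, SE 0.13, adjusted p = 0.0077). The groups were apart in all 3 genes, and no single library ended any of the calls. Gadd45b stayed low in both groups, from 0.158 to 2.46 RPKM (log2 fold change 0.07, adjusted p = 0.964). The genes that the meal lowered in other mice, Depp1, Ccng2, Btg1 and Klhl24, had log2 fold changes between -0.46 and 0.31 and did not pass. Of 5 red blood cell markers 4 rose with AAV-CRE (summed level 334 to 439 RPKM with AAV-GFP and 482 to 983 RPKM with AAV-CRE, none at 0), and their part was not tested.

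Loss of Irs1 and Irs2 in livers of fed mice given dex raised Depp1, Sesn1 and Klhl24, 3 of the 10 genes beside 17.4% of 12966 genes. Depp1 was at 6.89, 17.3, 7.85 and 15.9 RPKM in controls and at 50.5, 99.3, 151 and 161 RPKM in L-IRSdKO livers, 9.64-fold higher (log2 fold change 3.19, SE 0.41, adjusted p = 0.00329). Klhl24 was at 8.04, 10.2, 16.9 and 10.7 RPKM in controls and at 18.7, 23.8, 24.3 and 30 RPKM in L-IRSdKO livers (2.11-fold, log2 fold change 1.08, SE 0.22, adjusted p = 0.0131). Neither gene overlapped, and both calls remained without any one library. Sesn1 was at 19.6, 13.7, 10.0 and 10.7 RPKM in controls and at 16.9, 63.1, 83.8 and 76.6 RPKM in L-IRSdKO livers (4.45-fold, log2 fold change 1.94, SE 0.47, adjusted p = 0.0242). Here L-IRSdKO replicate 1 lay inside the control range and the other 3 at 63.1 RPKM or above. Without it the adjusted p was 0.0002, and without any of replicates 2 to 4 of either group the call was lost (up to 0.0715).

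Ccng2 did not pass, since control replicate 3, at 27.7 RPKM, lay within the L-IRSdKO range of 18.2 to 29.6 RPKM (log2 fold change 0.78, adjusted p = 0.156). Gadd45g was at 85.0 RPKM or above in all 8 livers, with a log2 fold change of 0.44. All 8 had received dex, and its part in this level was not tested. Gadd45b ran from 7.45 to 30.2 RPKM in controls and from 13.1 to 38.7 RPKM in L-IRSdKO livers (log2 fold change 0.91, adjusted p = 0.204). Gadd45a (log2 fold change -0.52, adjusted p = 0.206) and Btg1 (0.55, adjusted p = 0.175) did not pass. Other cell types moved as well. Of 5 endothelial markers 4 rose (summed level 43.7 to 49.2 RPKM in controls and 69.4 to 92.8 RPKM in L-IRSdKO livers), of 6 macrophage markers 2 rose (104 to 176 and 167 to 216 RPKM), and of 4 cholangiocyte markers 2 fell (18.3 to 43.6 and 7.08 to 12.7 RPKM), with none of these lists' markers at 0. Their part in the changes of Depp1, Sesn1 and Klhl24 was not tested. The hepatocyte sum was 2450 to 2690 RPKM in controls and 2260 to 2730 RPKM in L-IRSdKO livers.

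In lean mice of the diet experiment the meal moved 9 of the 10 genes, 8 downward and Gadd45a upward, beside 23.4% of 11434 genes, the highest background of the 16 comparisons. Klhl24 was at 14.9, 13.7 and 14.4 RPKM unfed and at 2.77, 3.45 and 3.25 RPKM fed, 4.54-fold lower (log2 fold change -2.02, SE 0.25, adjusted p = 0.000568). Ccng2 was at 10.4, 9.17 and 8.68 RPKM unfed and at 2.52, 2.42 and 2.25 RPKM fed, 3.93-fold lower (log2 fold change -1.77, SE 0.24, adjusted p = 0.000765). Gadd45a was at 1.48, 1.46 and 0.774 RPKM unfed and at 11.4, 7.56 and 7.32 RPKM fed, 7.08-fold higher (log2 fold change 2.42, SE 0.21, adjusted p = 0.000144). None of these groups overlapped. Gadd45g fell 6.70-fold, from 53.1, 69.6 and 54.4 RPKM to 9.8, 8.44 and 8.21 RPKM (log2 fold change -2.67, SE 0.50, adjusted p = 0.00403), and Gadd45b fell 2.86-fold (log2 fold change -1.14, adjusted p = 0.0152). Depp1 went from 31.7, 20.8 and 30 RPKM to 8.15, 8.47 and 2.76 RPKM (4.25-fold, log2 fold change -2.12, SE 0.60, adjusted p = 0.0273).

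Both sestrins fell in these mice. Sesn1 went from 7.13, 5.39 and 6.19 RPKM to 3.88, 3.11 and 3.07 RPKM (log2 fold change -0.80, SE 0.16, adjusted p = 0.00607) and Sesn3, its paralog and a FOXO target, from 2.73, 3.46 and 3.21 RPKM to 1.05, 1.63 and 2.32 RPKM (log2 fold change -0.78, SE 0.21, adjusted p = 0.0196), the only call of Sesn3 in the 16 comparisons. Btg1 fell 2.01-fold (log2 fold change -0.90, adjusted p = 0.0114), and Cited2 did not pass (0.39, adjusted p = 0.259). The call of Depp1 was lost without unfed replicate 1 or 3 or fed replicate 3 (adjusted p up to 0.101), that of Sesn3 without unfed replicate 2 or 3 or fed replicate 1 or 2 (up to 0.0674) and that of Gadd45b without fed lean replicate 2 (0.0618). Of 5 endothelial markers 3 fell with the meal (summed level 23.8 to 28.5 RPKM unfed and 17.9 to 19.6 RPKM fed, none at 0), and their part was not tested.

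In obese mice the meal lowered Depp1 and Klhl24, 2 of the 10 genes beside 7.65% of all genes. Klhl24 was at 18.4, 14.4 and 12.3 RPKM unfed and at 7.74, 5.14 and 2.97 RPKM fed (2.85-fold, log2 fold change -1.50, SE 0.25, adjusted p = 0.00893). Depp1 was at 24.0, 39.0 and 23.9 RPKM unfed and at 12.8, 8.05 and 1.48 RPKM fed (3.89-fold, log2 fold change -2.24, SE 0.60, adjusted p = 0.0469). Neither overlapped, but the call of Depp1 was lost without any of the 12 libraries other than fed obese replicate 1 and fed lean replicate 3 (adjusted p up to 0.113). Gadd45a, at 3.53, 3.76 and 2.91 RPKM unfed and 3.03, 4.4 and 3.71 RPKM fed, overlapped (log2 fold change 0.11, adjusted p = 0.796). Ccng2 (log2 fold change -0.76, adjusted p = 0.0727), Sesn1 (-0.40, adjusted p = 0.158), Gadd45b (-0.12, adjusted p = 0.835) and Gadd45g (0.43, adjusted p = 0.646) were not called.

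Whether the meal acted differently by diet was tested as an interaction, which called Gadd45a alone of the 10 genes, beside 0.743% of all genes. The rise of Gadd45a with the meal was smaller in obese mice by 2.31 on the log2 scale (interaction -2.31, SE 0.30, adjusted p = 0.00762). The interactions of Gadd45g (3.10, SE 0.70, adjusted p = 0.0739), Ccng2 (1.02, adjusted p = 0.192) and Gadd45b (1.02, adjusted p = 0.269) did not pass, although that of Gadd45g passed without fed obese replicate 3 (2.28, adjusted p = 0.0012). Among unfed mice, obese and lean livers differed in 3 of the genes, beside 5.22%. Gadd45g was at 4.41, 4.3 and 4.68 RPKM in unfed obese livers, 13.2-fold below the lean livers (log2 fold change -3.57, SE 0.50, adjusted p = 0.00473). Gadd45b was at 0.636, 1.15 and 0.425 RPKM in obese and 5.07, 2.64 and 2.15 RPKM in lean livers (log2 fold change -1.58, SE 0.28, adjusted p = 0.0133), whereas Gadd45a was 2.75-fold higher in obese livers (log2 fold change 1.19, SE 0.21, adjusted p = 0.0131). None of these groups overlapped. Among fed mice 1 gene differed, beside 0.499%, Gadd45a, which was 2.36-fold lower in obese livers (log2 fold change -1.12, adjusted p = 0.0493), a call lost without any fed library, unfed obese replicate 3 or unfed lean replicate 2 or 3 (adjusted p up to 0.182). Fed obese Gadd45g held 1 high liver, at 3.08, 3.54 and 20 RPKM. Of 5 endothelial markers 3 were lower in unfed obese than unfed lean livers (16 to 20.3 RPKM in obese livers), and their part was not tested.

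**Figure D4:**
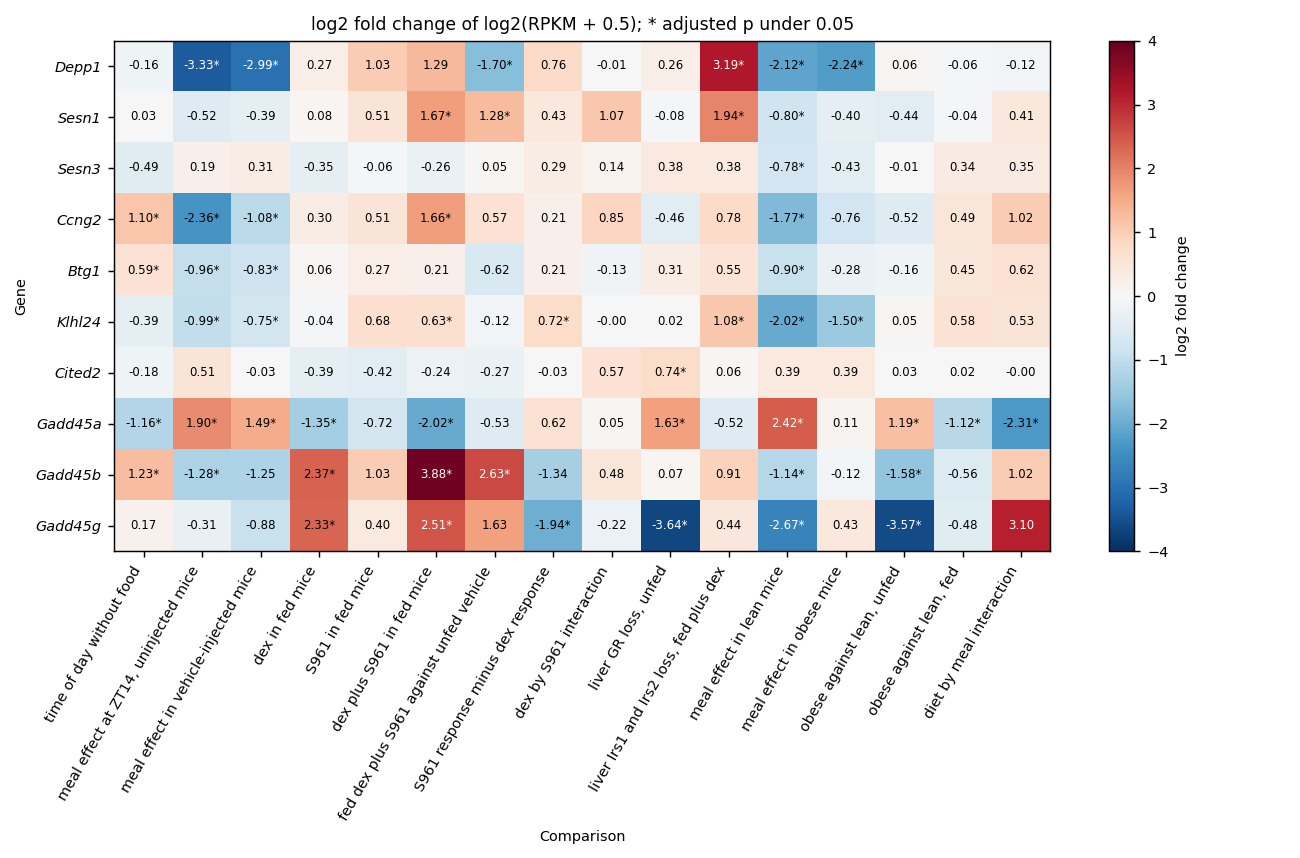
Log2 fold change of log2(RPKM + 0.5) for the 10 genes (rows) in the 16 comparisons (columns), coloured from blue (lower) to red (higher), with a star at an adjusted p under 0.05. Gadd45a is starred in 10 comparisons and is red where Depp1, Ccng2, Btg1 and Klhl24 are blue in the lean, vehicle-injected and uninjected meal comparisons, and Sesn3 and Cited2 carry 1 star each.

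Over the 16 comparisons the members differed in how often they were called. Gadd45a was called in 10 (5 up and 5 down), Klhl24 and Gadd45b in 7 each, Depp1 and Gadd45g in 6 each, Ccng2 in 5, Sesn1 and Btg1 in 4 each, and Sesn3 and Cited2 in 1 each. Several of these comparisons share control livers and are not independent. Described by Pearson's r over the 16 group means of log2(RPKM + 0.5), centred within each experiment, Depp1 was close to Klhl24 (0.87) and Btg1 (0.86), Gadd45b to Gadd45g (0.67), and Gadd45a ran opposite to Ccng2 (-0.88) and Gadd45g (-0.74). The points share libraries and control groups. By the same measure among 10691 genes whose mean reached 1 RPKM, the genes most like Klhl24 were Nr2c2 (0.98) and Fbxl20 (0.97), those most like Gadd45a were Csf1 and Polh (both 0.96), and those most like Depp1 were Mir546 and Mindy2 (both 0.95). Ccng2 was nearest to C9orf72 (0.95) and Cdc40 (0.94), Gadd45g to 1700045H11Rik (0.94) and Sds (0.93), Sesn1 to Slc25a33 (0.93) and Atp11b (0.92), and Sesn3 to Arhgef12 (0.93). Btg1 was nearest to Rnd1 and Clk1 (both 0.92), Cited2 to Gypc (0.92) and Cxcl12 (0.90), and Gadd45b to Phf11c (0.90) and Hspa2 (0.89).

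A list of 26 other FOXO-linked genes moved as follows. In the meal comparisons, 5 of 23 tested fell in uninjected mice beside 6.77% of all genes called (median log2 fold change -0.37, against 0.12 for all genes), 6 of 23 fell in vehicle-injected mice beside 3.13%, 12 of 23 fell in lean mice beside 23.4% and 3 of 23 fell in obese mice beside 7.65%, so that all calls of the list in these comparisons were downward. These shares count both directions. Of all genes, 207 of 10907 fell in uninjected, 65 of 11251 in vehicle-injected, 832 of 11434 in lean and 284 of 11434 in obese mice. Igfbp1, the insulin-repressed binding protein of IGFs, fell most in uninjected mice, from a mean of 114 to 0.86 RPKM (log2 fold change -6.35, adjusted p = 8.31e-05), and G6pc, the last enzyme of glucose release, fell by 3.02 on the log2 scale. With dex 3 of 23 rose (Igfbp1, Ddit4 and the cell cycle inhibitor Cdkn1a) and 1 fell (Tnfsf10), beside 3.19% of all genes, with S961 2 rose (Txnip at 2.30 and G6pc at 1.80), beside 1.9%, and with both agents 7 changed, all upward, beside 10.6%. In L-IRSdKO livers 13 of 25 rose and 1 fell beside 17.4% of all genes (median 0.56, against 0.03 for all genes), led by Pdk4 (3.56), Igfbp1 (3.30) and Txnip (2.39). In AAV-CRE livers 4 of 24 fell beside 6.68%, among them Igfbp1 (-2.62) and Ddit4 (-2.30).

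Among 9 paralogs and family members of the 10 genes, of which 6 or 7 were tested per experiment, Sesn2, the third sestrin, fell with the meal in uninjected (log2 fold change -1.0), vehicle-injected (-1.28) and lean mice (-2.01) and rose in L-IRSdKO livers (1.38). Sesn2 also stands on the list of other FOXO-linked genes and on the lists of p53-linked and ATF4-linked genes given below, so its calls are counted in each. Btg2, the paralog of Btg1, rose with dex (1.18) and fell with the meal in lean mice (-1.08). Of 9 GR-linked genes, 4 fell with the meal in uninjected mice beside 6.77% of all genes called (median log2 fold change -1.08). In vehicle-injected mice 2 fell beside 3.13% (median -0.3). In lean mice 8 fell beside 23.4% (median -1.02), and in obese mice 1 fell beside 7.65% (median 0.09). None of the 9 rose with the meal. With dex 4 of the 9 rose beside 3.19% of all genes, and 6 rose with both agents beside 10.6%. In AAV-CRE livers 7 of them fell beside 6.68%, led by Zbtb16 (-3.46) and Fkbp5 (-2.64), and 5 were lower in unfed obese than unfed lean livers beside 5.22%, led by Tat (-2.10).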

How the data were processed

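RNA was measured in 54 liver libraries. The authors aligned reads to mm9 with STAR and deposited RPKM values on 35707 RefSeq IDs, of which 35407 had a symbol in the name table and 300 had none. RPKM scales reads by depth and transcript length, so a few very abundant genes can shift all others. The authors called GR and FOXO1 peaks with HOMER against input and kept those shared by both replicates, and they called DHSs on pooled DNase reads. These lists hold positions only. The tool that counted RNA reads and its strand setting are not given in the sources used here. Deposited files of binding levels and H3K27Ac were not used here.

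The table was reduced to 1 ID per symbol. Each experiment was fitted with all its groups in limma 3.58.1 (R 4.3.3), with a variance trend, on log2(RPKM + 0.5), for genes whose mean reached 0.5 RPKM, with BH adjustment over all genes tested and without a replicate block. Reads per library were estimated from the smallest steps of the RPKM values, which limits precision for low genes and covers counting only. Gene bounds and TSSs were those of the longest protein-coding transcript in an mm9 annotation, or of the longest of any kind. RefSeq names came from a table of another assembly used for names only. Peaks were counted within 50 kb of a TSS in Python 3.11.15 with pandas 2.3.3 and numpy 2.4.6, and motif strings were searched in the mm9 sequence under each peak. The fit was tested on simulated data. Named genes are the members, the targeted genes, for each member the 2 genes closest in pattern, and at most 4 called genes a list and comparison by size of change, of which 1 gene is not reported here. The lists are other FOXO-linked genes, paralogs of the members, GR-linked, p53-linked and ATF4-linked genes, and cell type markers. The members and lists were chosen with earlier results of these data known. Alternatives were median-ratio scaling, pseudocounts of 0.1 and 1, no filter, an adjusted p under 0.01, the next RefSeq ID, a replicate block, injected replicates 1 to 3, other peak windows, all annotated TSSs and each library left out in turn. A term for the library series and a window of 5 kb were added after seeing the data.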

Additional observations from a re-analysis of the deposited data

Results flagged for a closer look

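In 96 sets of 4 libraries of a group tested, 10 held a library far from the others by Dixon's ratio, and chance gives about 1 in 20. Unfed vehicle replicate 4 was low for Ccng2 (5.25 RPKM, others 7.69 to 8.11), Btg1 (2.43, others 3.57 to 3.75) and Klhl24 (6.89, others 12.6 to 13.5). Sesn1 was at 19.7 RPKM in replicate 2 with dex and S961, where the others were at 12.2 to 13.5 RPKM. In the GR experiment, Btg1 was at 7.26 RPKM in AAV-GFP replicate 1 (others 5.25 to 5.53), Klhl24 at 14.2 RPKM in AAV-CRE replicate 3 (others 11.4 to 11.5) and Gadd45b at 2.46 RPKM in AAV-CRE replicate 3 (others 0.335 to 0.595). Of the targeted genes, Irs1 was at 2.21 RPKM in control replicate 1 (others 4.5 to 4.73) and at 0.321 RPKM in L-IRSdKO replicate 3 (others 0.149 to 0.17), and Irs2 was at 0.272 RPKM in L-IRSdKO replicate 1 (others 0.886 to 1.0). The effect of the meal on Gadd45a differed between obese and lean mice by -2.31 on the log2 scale, by limma's interaction term (adjusted p = 0.00762).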

How the results depend on the processing

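Of 51 called changes of the members, 27 were called under every alternative and 51 kept their direction under every alternative, and none of 1883 alternative values reversed. The cause of the shifts was not tested. The share of all genes called was not computed at an adjusted p under 0.01 or with 1 library left out, so those counts describe the list only. The counts of members called at an adjusted p under 0.01 were 1 for time of day, 3 for the meal in uninjected and 3 in vehicle-injected mice, 0 for S961 minus dex, 1 for Irs1 and Irs2 loss, 5 for the lean and 1 for the obese meal, and 1 and 0 for obese against lean, unfed and fed. Without the filter on low values they were 1 for time of day (beside 1.18% of all genes), 2 for the uninjected meal (0.616%), 1 for the obese meal (2.87%) and 0 for fed obese against lean (0.0424%). Median-ratio scaling gave 1 for S961 (Klhl24, beside 1.8% of all genes) and 0 for fed obese against lean (0.367%). A pseudocount of 0.1 gave 1 for the obese meal (7.42%) and 0 for fed obese against lean (0.332%). The term for the library series, chosen after seeing the data, gave 1 for S961 (beside 4.25% of all genes) and 5 for both agents against unfed vehicle (4.85%). A window of 5 kb gave 5 members with a GR peak and 5 with a FOXO1 peak.

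In every experiment some pairs of same-numbered libraries had an r under 0.1 (-0.029 to 0.0482 in uninjected mice), and the main fit used no replicate block. All pairs of replicate 4 lay above 0.1 in injected mice (0.441 to 0.605), as did the 1 pair of replicate 4 in the GR experiment (0.154). The injected libraries numbered 4 thus shared more than a number, and what they shared was not tested. With the number as a block, 2 members were called for time of day (beside 5.42% of all genes), 1 for S961 (3.84%) and 0 for fed obese against lean (0.0962%).

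With 1 library left out, members called ranged from 1 to 3 for time of day, 3 to 8 for the uninjected meal, 3 to 6 for the vehicle meal, 3 to 3 for dex, 0 to 1 for S961, 5 to 7 for both agents, 2 to 4 against unfed vehicle, 1 to 3 for S961 minus dex, 0 to 0 for the interaction of dex and S961, 3 to 3 for GR loss, 2 to 3 for Irs1 and Irs2 loss, 7 to 10 for the lean meal, 1 to 3 for the obese meal, 3 to 4 and 0 to 1 for unfed and fed obese against lean, and 1 to 2 for diet by meal.

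Over all genes, calls moved by over 1.5 times as follows. Replicates 1 to 3 gave 716 for the vehicle meal (352 with all), 818 for dex (359) and 4 for the interaction (0). The series term gave 1036, 1096, 478 for S961 (214), 2204 for both agents (1193), 546 against unfed vehicle (261) and 1443 for S961 minus dex (840), and the block 928, 968, 432, 2041, 523 and 1370. Scaling gave 221 for the vehicle meal and 772 for both agents. Without the filter, 222 were called for time of day (976), 116 for the uninjected meal (738), 466 for GR loss (778), 541 for the obese meal (875), 355 and 8 for unfed and fed obese against lean (597 and 57) and 28 for diet by meal (85). The block gave 591 for time of day, 464 for the uninjected meal, 1441 for Irs1 and Irs2 loss (2253), 11 for fed obese against lean and 46 for diet by meal.

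Depth limits Gadd45a and Gadd45b most, with estimates down to 2 reads.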

Other observations

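Of 12 p53-linked genes, 9 to 12 of them tested per experiment, Trp53inp1, a p53-induced nuclear protein of autophagy, was the member that moved in most comparisons. It rose between ZT10 and ZT14-unfed (log2 fold change 1.1), fell with the meal in uninjected (-2.66), vehicle-injected (-1.31) and lean mice (-2.78), rose with dex and S961 together (1.43) and in L-IRSdKO livers (0.95), and fell in AAV-CRE livers (-1.38). Of the list, 2 of 9 tested genes fell with the meal in uninjected mice, the other being Sesn2, beside 6.77% of all genes, and 2 of 11 rose with dex, Cdkn1a (1.86) and Btg2 (1.18), beside 3.19%. The lists share genes, so the same calls of Cdkn1a are also counted among other FOXO-linked genes and those of Btg2 among the paralogs.

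Among 9 ATF4-linked stress genes, Ddit3, which encodes the stress factor CHOP, rose with the meal in uninjected (log2 fold change 1.51), lean (0.85) and obese mice (1.41) and fell with dex and S961 together (-1.03) and in L-IRSdKO livers (-1.16), where Trib3 (1.94) and Sesn2 (1.38) rose. With the meal 1 of the 9 rose and 3 fell in uninjected mice, beside 6.77% of all genes. In lean mice 2 rose and 4 fell beside 23.4%, Chac1 and Sesn2 among those that fell (-1.52 and -2.01). In obese mice 1 rose and 1, Chac1, fell (-1.68), beside 7.65%.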
